A study of Homo sapiens with 26 samples.

Results

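The FAT, DCHS and CELSR large cadherins were examined as 8 genes taken by symbol, FAT1, FAT2, FAT3, FAT4, DCHS1, CELSR1, CELSR2 and CELSR3, out of 26485 symbols measured. All 8 were listed in each of 5 mRNA-seq tables, which held 26 libraries of the established human cell lines KYSE180, TE6 and KYSE150, all from esophageal squamous cell carcinoma (ESCC). The genes were chosen by name, with earlier results of these data known. KYSE180 cells received either a control siRNA (siCont, 3 libraries) or an siRNA against BRDT (siBRDT, 3 libraries), and in a separate experiment siCont (2 libraries) or an siRNA against TP63 (siTP63, 2 libraries). TE6 cells received siCont, siBRDT or siTP63 (2 libraries each, in 1 table), and KYSE150 cells received siCont or siTP63 (2 libraries each). KYSE150 cells electroporated with a BRDT plasmid (BRDT-OE, 3 libraries) were compared with control cells (cont, 3 libraries), which per the study's methods carried the empty pCDNA5/TO vector. Knockdown cells were collected after 48 h. BRDT encodes a germ-cell bromodomain protein of the BET family, and TP63 encodes p63, the master transcription factor of squamous epithelium. The comparisons asked which genes each factor maintains in these cells.

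Fat and Dachsous proteins are giant cadherins of the cell surface. A Fat protein on one cell can bind Dachsous on its neighbour, with FAT4 and DCHS1 forming the best-known vertebrate receptor and ligand pair, and in flies this pair feeds into the Hippo growth-control pathway and into tissue polarity. The CELSR proteins are the vertebrate forms of Flamingo, a 7-pass cadherin of the core planar cell polarity machinery that bridges neighbouring cells together with Frizzled and Vang-like proteins. FAT1 is a frequently mutated gene of squamous carcinomas, and FAT2 is the family member best known from keratinocytes.

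All 8 genes are long. On hg38 with GENCODE release 44, FAT1 lies at chr4:186587794-186726722 on the minus strand, and its longest transcript has 14776 nt. FAT2 lies at chr5:151504092-151591331 on the minus strand with a longest transcript of 14710 nt. FAT3 is at chr11:92224818-92896473 on the plus strand (19504 nt), and FAT4 at chr4:125314918-125492932 on the plus strand (17151 nt). DCHS1, the shortest of the family, is at chr11:6621330-6655809 on the minus strand (10713 nt). CELSR1 is at chr22:46360834-46537620 on the minus strand (11839 nt), CELSR2 at chr1:109249539-109275751 on the plus strand (11015 nt) and CELSR3 at chr3:48636463-48662886 on the minus strand (11933 nt). Exons of FAT2 overlapped an antisense lncRNA over 596 bases, exons of DCHS1 overlapped DCHS1-AS1 over 820 bases and a further antisense lncRNA over 287 bases, and CELSR3 contained the microRNA gene MIR4793 over 65 exonic bases. The library kit does not mark strand, so reads of FAT2 or DCHS1 and of their antisense partners could not be told apart.

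Because FAT2 and FAT1 had the largest falls of the family and CELSR3 was the member that rose with siTP63 in 2 lines, the 250 bases before their annotated starts are shown (RefSeq, GRCh38.p14, 5′ to 3′ on the gene's strand). Capitals mark matches of the GC box GGGCGG. The table held such a window for 4 of the 8 genes (FAT1, FAT2, CELSR2 and CELSR3), and for FAT1 it held a second one at chr4:186723857-186724106, with 74% GC and 3 matches of GGGCGG, which is not shown.
FAT2, chr5:151591332-151591581, minus strand: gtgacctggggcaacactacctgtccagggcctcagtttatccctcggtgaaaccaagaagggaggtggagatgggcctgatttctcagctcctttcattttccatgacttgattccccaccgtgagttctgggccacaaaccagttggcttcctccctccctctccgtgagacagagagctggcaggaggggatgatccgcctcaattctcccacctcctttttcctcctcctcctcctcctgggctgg
FAT1, chr4:186726697-186726946, minus strand: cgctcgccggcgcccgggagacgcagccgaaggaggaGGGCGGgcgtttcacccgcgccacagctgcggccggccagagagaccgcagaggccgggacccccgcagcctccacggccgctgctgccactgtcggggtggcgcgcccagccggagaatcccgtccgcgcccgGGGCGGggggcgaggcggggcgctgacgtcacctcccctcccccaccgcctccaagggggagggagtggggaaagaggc
CELSR3, chr3:48662887-48663136, minus strand: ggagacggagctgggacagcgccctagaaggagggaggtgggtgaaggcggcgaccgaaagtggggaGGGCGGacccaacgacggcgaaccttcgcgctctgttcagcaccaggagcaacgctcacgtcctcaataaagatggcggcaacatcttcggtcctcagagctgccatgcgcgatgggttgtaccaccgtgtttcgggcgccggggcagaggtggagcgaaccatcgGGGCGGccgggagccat

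The FAT2 window stood apart from the others in base composition. It had a GC content of 56.8% and 4 CpG dinucleotides, beside medians of 58% and 11 over 35116 promoter windows of the same length, whereas the FAT1 window shown had 78% GC and 32 CpG and the CELSR3 window 65.2% GC and 25 CpG. CELSR2 was like these, with 64.4% GC and 23 CpG. Both strands were searched for the GC box GGGCGG, for the AP-1 site TGACTCA, for the TEAD site GGAATG, for the TATA box TATAAA and for the half-site of the p53 family. The FAT1 window shown and the CELSR3 window each held GGGCGG 2 times and the CELSR2 window held it 1 time, while 42.6% of all promoter windows contained it. No match to the other motifs was found in these windows, and the FAT2 window matched none of the searched motifs. Of all windows, 5.57% held the p53 family half-site, 4.2% the AP-1 site, 11.9% the TEAD site and 10.7% the TATA box. These matches describe letters only, and a missing match says nothing of a factor's binding elsewhere.

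Of the siRNAs that the study lists against each factor (4 for BRDT and 2 for TP63), the one with the longest stretch in common with a FAT2 transcript, on either strand, is shown to let the largest fall be read beside its sequence. Capitals mark that stretch. Which siRNAs gave the sequenced libraries was not given in the sources used here.
BRDT #3: GAAAAUGGAUAaccaagaa
TP63 #8: cgacagucuuGUACAAUUU

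No siRNA matched a large cadherin transcript over its full 19 nt. The longest run shared with FAT2 was 11 nt, in BRDT #3, and that of the TP63 siRNAs was 9 nt. Over all 8 genes the longest shared run was 12 nt, between BRDT #18 and CELSR1.

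Values are read counts divided by a size factor for each library, as deposited, and recovered depth was 7582089 to 19372441 reads per library. Fold changes are differences of log2(value + 1) with SE from limma, and a gene was called when its Benjamini-Hochberg adjusted p was under 0.05 and the log2 fold change at least 0.5 in size. BRDT, the targeted gene, was at 1017, 1043 and 1136 in KYSE180 siCont and at 132, 147 and 198 with siBRDT, and in TE6 it was at 241 and 242 against 55.0 and 46.6. TP63 was at 2573 and 3035 in KYSE180 siCont and at 794 and 925 with siTP63, in TE6 at 2596 and 2785 against 133 and 112, and in KYSE150 at 695 and 729 against 170.3 and 114. BRDT-OE libraries held BRDT values of 15871 to 17542 against 6.58 to 16 in controls. TP63 itself also fell with siBRDT, by 0.58 on the log2 scale in KYSE180 and by 1.15 in TE6 (limma adjusted p = 8.8e-06 and 2.0e-05). All 8 markers of squamous epithelium reached at least 1 RPM (reads of a gene per 1000000 reads of the library) in every library, whereas of the 5 markers of columnar epithelium at most 2 did. In bulk RNA, fewer cells that express a gene and less RNA per cell cannot be told apart. Nothing in the labels says that replicates came from separate cultures, so p-values measure the spread between these libraries, which may be technical.

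Of the 8 genes, 6 were measurable in KYSE180 and KYSE150 and 5 in TE6, where measurable means an average value of 10 or more across a fit. FAT3 held 0 to 16 reads and DCHS1 0 to 17 reads per library, and neither passed that filter in any table. A count of 0 allows up to 3 reads, or 0.155 to 0.396 RPM in these libraries, and covers counting error only. FAT4 passed in KYSE180 and KYSE150 but not in TE6, where its 6 libraries ranged from 3.52 to 16.3. Thus the FAT4 receptor was measured without its ligand DCHS1, and no fold change is given for FAT3 or DCHS1. DCHS2, the other Dachsous gene, is not among the 8 and is counted with the partners below. It passed the filter only in the KYSE180 BRDT experiment, at 21.8 ± 1.48 (SD) in siCont and 1.42 ± 2.46 with siBRDT. Its log2 fold change there was -3.71 ± 0.589 (SE, limma adjusted p = 7.5e-05), from values close to the filter.

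Per kilobase of longest transcript, FAT1, FAT2 and CELSR1 led the family in every control group of KYSE180 and TE6, in varying order, except that CELSR2 also lay above FAT2 in the TP63 experiment of KYSE180. In TE6 siCont, FAT1 was at 7.15 ± 0.391 RPM per kb (SD, n = 2), CELSR1 at 7.14 ± 0.00842, FAT2 at 6.72 ± 0.222, CELSR2 at 3.97 ± 0.277 and CELSR3 at 2.92 ± 0.0720. FAT1 and CELSR1 overlapped, FAT2 lay just below both, and CELSR2 and CELSR3 lay further below without overlap. FAT4 was at 0.0292 ± 0.0156 RPM per kb in TE6 siCont. In the siCont cells of the KYSE180 BRDT experiment the order was FAT1 (26.1 ± 3.95 RPM per kb, n = 3), CELSR1 (18.0 ± 1.88), FAT2 (17.3 ± 2.37), CELSR2 (8.82 ± 0.746), CELSR3 (3.71 ± 0.207) and FAT4 (0.996 ± 0.161). CELSR1 and FAT2 overlapped there, while every other pair of neighbours did not. In the siCont cells of the KYSE180 TP63 experiment CELSR1 came first at 4.69 ± 0.514 RPM per kb (n = 2), then FAT1 at 3.48 ± 0.765, CELSR2 at 2.44 ± 0.179, FAT2 at 1.49 ± 0.0394 and CELSR3 at 1.34 ± 0.0274, with no overlap between neighbours. KYSE150 differed in that CELSR2 headed the family with FAT2, at 9.65 ± 2.56 and 9.09 ± 2.64 RPM per kb in the control cells of the overexpression experiment, followed by FAT1 at 7.57 ± 2.64, values that overlapped. In the siCont cells of KYSE150, FAT2 was at 3.65 ± 0.521, CELSR2 at 3.22 ± 0.0184, CELSR1 at 2.19 ± 0.456 and FAT1 at 2.08 ± 0.318 RPM per kb, and only CELSR1 and FAT1 overlapped among these neighbours.

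The level of the same gene in the same line was far apart between experiments. In KYSE180 the ratio was largest for FAT2, and in KYSE150 it was smallest for FAT2 among the 6 measured members. FAT2 in RPM was 11.6 times as high in siCont cells of the KYSE180 BRDT experiment as in siCont cells of the KYSE180 TP63 experiment, FAT1 7.49 times, FAT4 5.63 times, CELSR1 3.83 times, CELSR2 3.61 times and CELSR3 2.76 times. Over 957 other long genes the median ratio was 2.801, and over 8510 shorter genes it was 1.28. Between the control cells of the KYSE150 overexpression experiment and the KYSE150 siCont cells the same ratio was 2.49 for FAT2, 2.97 to 3.64 for FAT1, FAT4, CELSR1 and CELSR2, and 4.61 for CELSR3, beside a median of 2.24 for 932 long genes and 1.241 for 8501 shorter ones. These tables were normalised separately, so such levels were not tested against each other, and every comparison below was made within a table. Long genes in those comparisons are genes with a longest transcript of at least 8000 nt and a mean value from 100 to 5000 over the fit, large cadherins left out. For the ratios above, genes instead had a mean value of at least 100 in both control groups, with no upper limit. The shorter genes there were all the remaining genes, large cadherins and genes without an annotated transcript included.

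**Figure D1:**
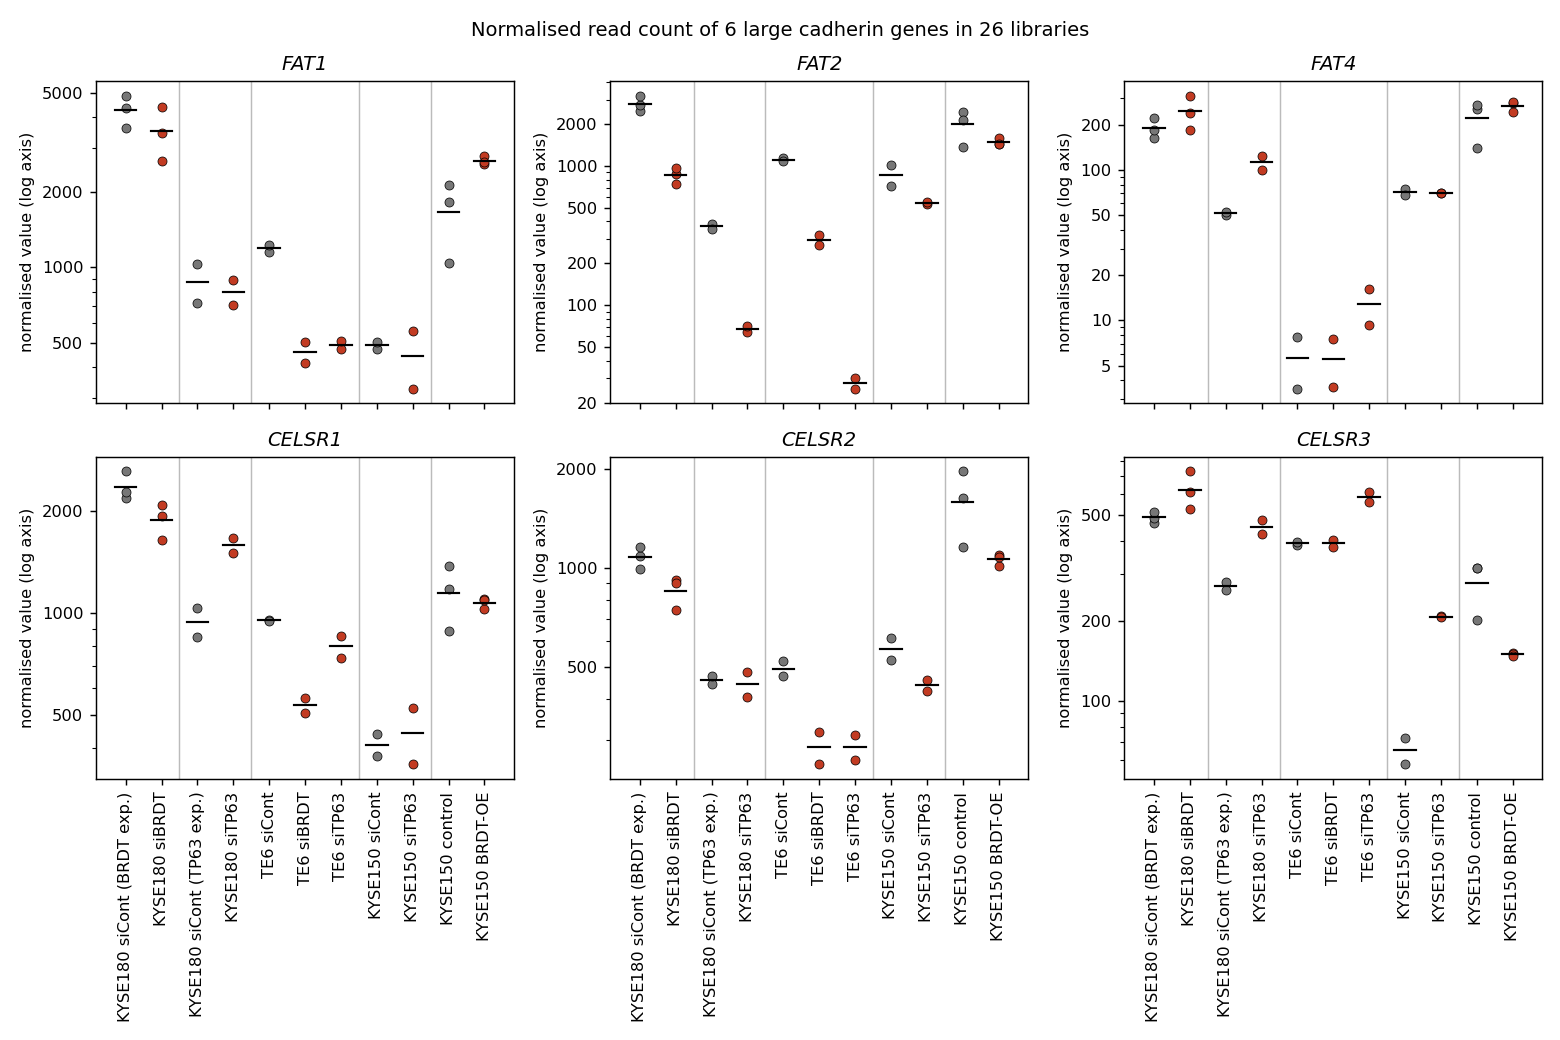
Normalised read count (y axis, log scale) of FAT1, FAT2, FAT4, CELSR1, CELSR2 and CELSR3 in the 11 groups (x axis), with 1 point per library, grey for control and red for treated libraries, and a line at the group mean. Vertical lines part the 5 experiments. FAT2 drops from 1085 to 1145 in TE6 siCont to 25.2 to 29.9 with siTP63, whereas CELSR3 rises there from 387 to 398 up to 561 to 609.6.

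FAT2, a receptor-type cadherin of squamous cells, was the member with the largest fall in each of the 4 comparisons in KYSE180 and TE6 knockdown cells. FAT2 in KYSE180 was at 2482, 2763 and 3207 in siCont and at 746, 871 and 962 with siBRDT. In TE6 it was at 1145 and 1085 in siCont, at 271 and 318 with siBRDT, and at 29.9 and 25.2 with siTP63. In the TP63 experiment of KYSE180, FAT2 was at 385 and 355 in siCont and at 64.4 and 71.5 with siTP63. Control and knockdown libraries did not overlap in any of these comparisons. The log2 fold change of FAT2 was -1.71 ± 0.0979 (SE) with siBRDT in KYSE180 and -1.92 ± 0.155 with siBRDT in TE6 (limma adjusted p = 2.9e-09 and 3.3e-06). With siTP63 it was -2.43 ± 0.181 in KYSE180 and -5.30 ± 0.155 in TE6 (limma adjusted p = 5.7e-11 and 2.3e-10). As a share of the control value, FAT2 fell by 69.5% and 73.6% with siBRDT and by 81.4% and 97.5% with siTP63. The last value rests on 17 and 45 reads in the TE6 siTP63 libraries, against 1260 and 1302 reads in siCont.

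FAT2 stood at the low end of other long genes of similar level in these comparisons. With siBRDT, 6 of 1085 long genes in KYSE180 and 2 of 951 in TE6 had a log2 fold change as low as that of FAT2 or lower, and with siTP63 the count was 3 of 1011 in KYSE180 and 0 of 951 in TE6. When the trend of each library on transcript length and GC content was taken away, the log2 fold changes of FAT2 were -1.70, -1.77, -2.72 and -5.20 in the same order. Under every alternative tried, the call of FAT2 held in these 4 comparisons.

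FAT2 was also compared directly between the 2 knockdowns in TE6. That difference of means used no control library, but its SE and p came from the shared TE6 fit, which includes siCont. FAT2 was 10.4-fold lower with siTP63 than with siBRDT, a log2 difference of -3.37 ± 0.155 (limma adjusted p = 3.3e-08). Both TE6 comparisons above share their siCont libraries, so their fold changes are not independent. Between lines, the siBRDT effect on FAT2 differed by 0.21 on the log2 scale (KYSE180 minus TE6), with a 95% interval from -0.33 to 0.75 and a limma adjusted p of 0.57. In contrast, the siTP63 effect was 2.87 ± 0.285 less negative in KYSE180 than in TE6 (limma adjusted p = 1.0e-06). The knockdown itself differed in depth, with a log2 fold change of TP63 of -1.70 in KYSE180 and -4.45 in TE6. The part of this in the FAT2 difference was not tested.

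FAT2 in KYSE150 was not called in either experiment in the fits of log2(value + 1). It was at 1016 and 715 in siCont and at 535 and 555 with siTP63, so the groups did not overlap, but the log2 fold change of -0.64 ± 0.236 had a limma adjusted p of 0.24. The effect of siTP63 on FAT2 was more negative in KYSE180 and in TE6 than in KYSE150 (log2 differences -1.79 ± 0.284 and -4.65 ± 0.284, limma adjusted p = 1.4e-04 and 5.0e-10). With BRDT-OE, FAT2 was at 1445, 1585 and 1441 against 2461, 2141 and 1375 in controls. The third control library lay below the BRDT-OE range, and the log2 fold change was -0.38 ± 0.171 (limma adjusted p = 0.088). The median log2 deviation of long genes in the third control library was -0.28, against 0.01 and 0.10 in the other controls and 0.06 to 0.09 in BRDT-OE libraries, and the part of this in the result was not tested. Without the third control library, FAT2 was at -0.62 (limma adjusted p = 1.2e-06) and was called. It was also called with the length and GC trend taken away, at -0.51 (limma adjusted p = 8.7e-04).

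**Figure D2:**
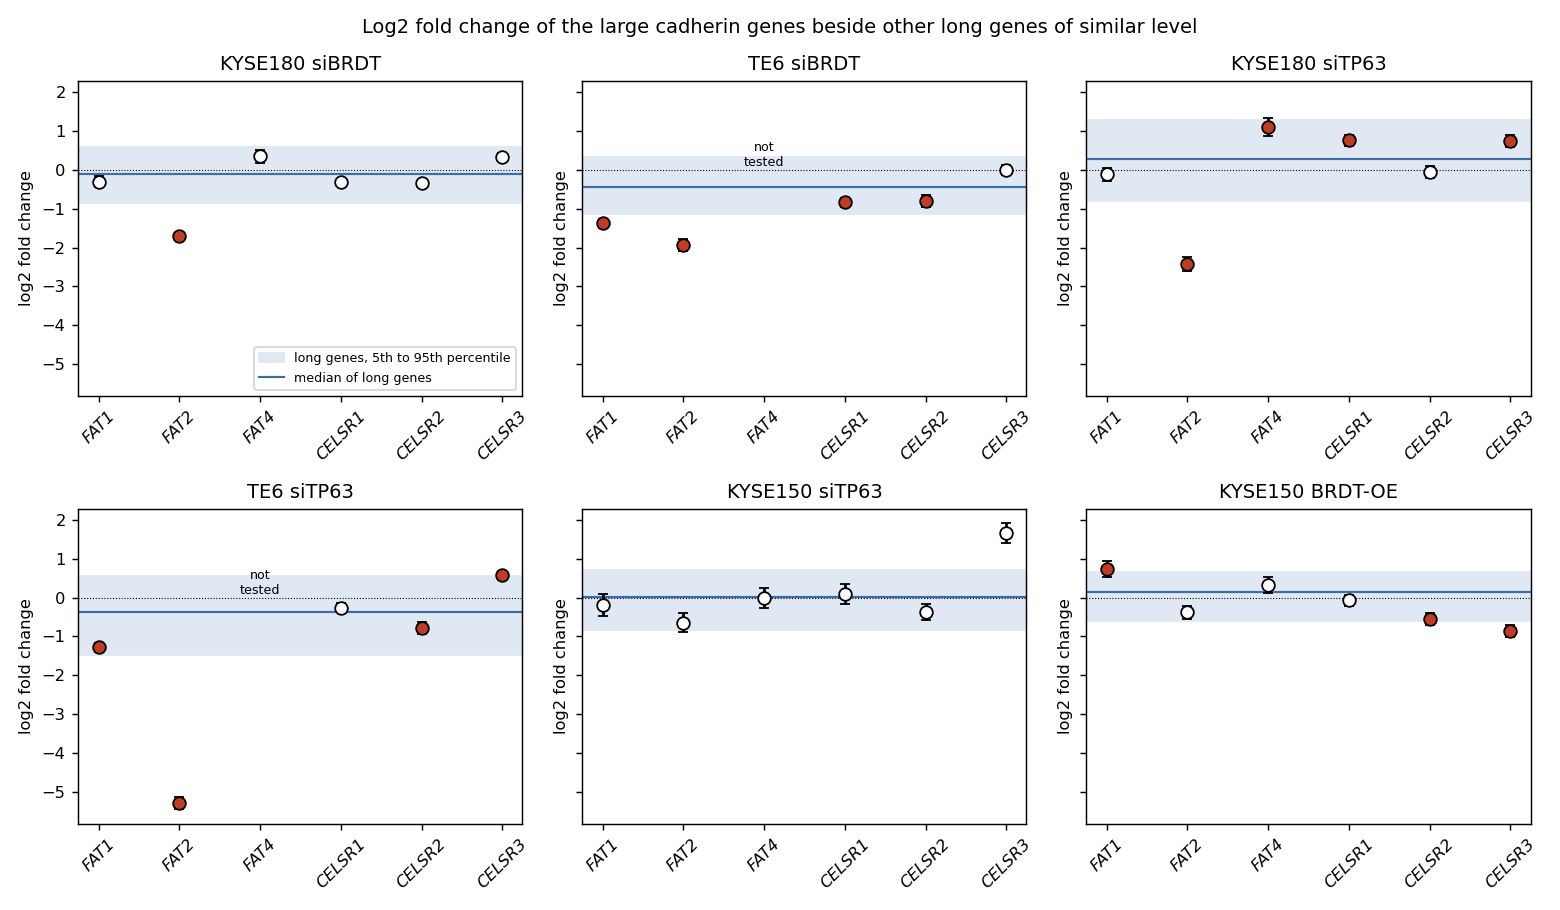
Log2 fold change (y axis) of 6 large cadherin genes (x axis) in the 6 comparisons of treated with control cells, with bars of 1 SE. Filled points were called, open points were not, the band spans the 5th to 95th percentile of other long genes of similar level and the blue line is their median. FAT2 lies below the band in the 4 knockdown comparisons of KYSE180 and TE6, at -1.71, -1.92, -2.43 and -5.30, and CELSR3 lies above the band in KYSE150 siTP63, at 1.66.

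FAT1, a receptor-type cadherin linked to actin and to Hippo signalling, fell in TE6 with both knockdowns and was not called in any KYSE180 comparison. FAT1 in TE6 was at 1149.9 and 1234 in siCont, at 415 and 505 with siBRDT and at 473 and 506 with siTP63. The knockdown libraries lay below the siCont libraries without overlap, and the knockdowns overlapped each other. The log2 fold change of FAT1 in TE6 was -1.38 ± 0.125 with siBRDT and -1.28 ± 0.125 with siTP63 (limma adjusted p = 7.3e-06 and 5.0e-06). The difference of siTP63 from siBRDT was 0.095, with a 95% interval from -0.18 to 0.36. Of 951 long genes in TE6, 19 were as low as FAT1 or lower with siBRDT and 70 with siTP63. With the length and GC trend taken away the values were -1.10 and -1.08.

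In KYSE180, FAT1 was at 3625, 4344 and 4860.5 in siCont and at 2672, 3452 and 4381 with siBRDT, and the groups overlapped. The log2 fold change was -0.31 ± 0.137 (limma adjusted p = 0.066). Its siBRDT effect was 1.07 ± 0.351 less negative in KYSE180 than in TE6 (limma adjusted p = 0.031), but the median of 909 long genes in the same contrast was 0.34, and the contrast was lost without any of 6 libraries (the first KYSE180 siCont, the second KYSE180 siBRDT, the third KYSE180 siBRDT, either TE6 siCont or the first TE6 siBRDT), with adjusted p from 0.052 to 0.12. In the TP63 experiment of KYSE180, FAT1 was at 1029 and 719.7 in siCont and at 706 and 893 with siTP63, for a log2 fold change of -0.12 ± 0.164 (limma adjusted p = 0.56). The siTP63 effect on FAT1 was 1.17 ± 0.385 less negative in KYSE180 than in TE6 (limma adjusted p = 0.015), beside a median of 0.62 for 892 long genes. With the length and GC trend taken away this contrast was 0.62 (limma adjusted p = 0.062), and it was also lost without the second siCont or the second siTP63 library of KYSE180 (0.91 and 1.00, limma adjusted p = 0.082 and 0.069).

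FAT1 was the only member that rose with BRDT overexpression. It was at 1826, 2127 and 1038 in KYSE150 controls and at 2579, 2787 and 2639 in BRDT-OE, so that all BRDT-OE libraries lay above the controls. The log2 fold change was 0.74 ± 0.205 (limma adjusted p = 0.012), and 40 of 1037 long genes were as high or higher. The third control library had the lowest FAT1 value, and without it the log2 fold change was 0.44 (limma adjusted p = 3.1e-05), under the limit of 0.5. With DESeq2 on the recovered reads FAT1 was at 0.67 with an adjusted p of 0.054, which ended the call. In KYSE150 siCont, FAT1 was at 471 and 504 against 556 and 327 with siTP63 (log2 fold change -0.19 ± 0.294, limma adjusted p = 0.78).

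FAT4, the receptor for Dachsous, rose in KYSE180 with siTP63. It was at 50.3 and 52.4 in siCont and at 100.5 and 125 with siTP63, a log2 fold change of 1.11 ± 0.226 (limma adjusted p = 1.7e-04). Of 1011 long genes 77 were as high or higher, and the value was 0.75 with the length and GC trend taken away. FAT4 itself lay below the mean value of 100 required of those long genes, so they are not of its level. In the BRDT experiment of KYSE180 FAT4 was at 163, 185 and 221 in siCont and at 184, 239.7 and 312 with siBRDT, with overlapping groups and a log2 fold change of 0.35 ± 0.159 (limma adjusted p = 0.074). Without the first siBRDT library it was 0.54 (limma adjusted p = 0.0026). KYSE150 gave log2 fold changes of FAT4 of -0.013 ± 0.267 with siTP63 and 0.33 ± 0.214 with BRDT-OE (limma adjusted p = 0.99 and 0.22).

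CELSR1 and CELSR2, the broadly expressed epithelial Flamingo cadherins, fell in TE6 with siBRDT and lay lower without being called in KYSE180. CELSR1 in TE6 was at 956 and 951 in siCont, 507 and 564 with siBRDT and 739.8 and 855 with siTP63. CELSR2 there was at 519.5 and 468 in siCont, 252 and 317 with siBRDT and 261 and 311 with siTP63. The siBRDT libraries of both genes lay below siCont without overlap. With siBRDT the log2 fold change was -0.83 ± 0.117 for CELSR1 and -0.80 ± 0.151 for CELSR2 (limma adjusted p = 1.3e-04 and 1.0e-03). Among 951 long genes, 167 and 181 were as low or lower, so that CELSR1 and CELSR2 lay within the range of other long genes, whose median was -0.43. After rescaling to equal upper quartiles the values were -0.55 and -0.52 and neither was called (limma adjusted p = 0.056 and 0.084).

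With siTP63 in TE6, CELSR2 fell (-0.79 ± 0.151, limma adjusted p = 8.6e-04), whereas CELSR1 was at -0.26 ± 0.117 and was not called (limma adjusted p = 0.080). The direct difference of siTP63 from siBRDT was 0.57 ± 0.117 for CELSR1 (limma adjusted p = 0.0021) and 0.0098 ± 0.151 for CELSR2, with a 95% interval from -0.32 to 0.34. The CELSR1 difference was not called after rescaling to equal upper quartiles (0.38, limma adjusted p = 0.21), without the second siTP63 library (0.47, limma adjusted p = 0.063) or without the first siBRDT library (0.496, which passed the p threshold but not the limit of 0.5). In KYSE180, CELSR1 was at 2183, 2276 and 2617 in siCont and at 1648, 1929 and 2083 with siBRDT, and CELSR2 at 991, 1083 and 1159 against 746, 916 and 897. Neither overlapped, but the log2 fold changes of -0.32 ± 0.0871 and -0.34 ± 0.0860 were under the limit of 0.5 (limma adjusted p = 0.0051 and 0.0034). Their siBRDT effects did not pass the test between lines, with differences of 0.51 (95% interval 0.029 to 0.99, limma adjusted p = 0.11) and 0.46 (-0.016 to 0.94, limma adjusted p = 0.14).

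CELSR1 and CELSR2 parted in KYSE180 cells with siTP63. CELSR1 rose from 1035 and 848 in siCont to 1508 and 1669 (log2 fold change 0.76 ± 0.145, limma adjusted p = 7.9e-05), while CELSR2 was at 442 and 469 against 403 and 481 (-0.048 ± 0.152, limma adjusted p = 0.80). Of 1011 long genes, whose median was 0.29, 205 were as high as CELSR1 or higher. The siTP63 effect was higher in KYSE180 than in TE6 by 1.02 ± 0.253 for CELSR1 and by 0.74 ± 0.251 for CELSR2 (limma adjusted p = 0.0021 and 0.017), against 0.62 for the median of long genes. The CELSR2 difference was lost without any of 4 libraries (the first siCont or second siTP63 of KYSE180, the first siCont or first siTP63 of TE6), at 0.62 to 0.70. For CELSR1 it was also 0.67 ± 0.253 higher than in KYSE150 (limma adjusted p = 0.046). That difference lost its call in 8 of 14 alternatives, with an adjusted p of 0.081 with the replicate block and up to 0.094 over the other settings.

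In KYSE150, CELSR2 fell with BRDT-OE from 1964, 1625 and 1159.8 to 1096, 1011 and 1077 (log2 fold change -0.54 ± 0.153, limma adjusted p = 0.013). The groups did not overlap, and 62 of 1037 long genes were as low or lower. The call was lost without the first control library (-0.37, limma adjusted p = 0.058) or the second BRDT-OE library (-0.51, limma adjusted p = 0.053), and without the third control library the value was -0.75. CELSR1 was at 1376, 1174 and 885 against 1026.5, 1098 and 1093 (-0.072 ± 0.134, limma adjusted p = 0.67). With siTP63 in KYSE150 the log2 fold changes were 0.089 ± 0.258 for CELSR1 and -0.36 ± 0.201 for CELSR2, neither called (limma adjusted p = 0.89 and 0.40).

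CELSR3, a Flamingo cadherin best known from axon guidance in the nervous system, rose with siTP63 in KYSE180 and TE6, where FAT2 fell. CELSR3 was at 282 and 262 in KYSE180 siCont and at 424 and 481 with siTP63. In TE6 it was at 387 and 398 in siCont, at 561 and 609.6 with siTP63, and at 405 and 379.9 with siBRDT. In KYSE150 CELSR3 was at 72.8 and 57.7 in siCont and at 209 and 206 with siTP63. In all 3 lines the siTP63 libraries lay above siCont without overlap. The log2 fold change with siTP63 was 0.73 ± 0.156 in KYSE180 and 0.57 ± 0.120 in TE6 (limma adjusted p = 2.7e-04 and 0.0016), both called.

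The siTP63 fold change of CELSR3 in KYSE150, 1.66 ± 0.255, was the largest of the 3 lines but was not called at a limma adjusted p of 0.11. In that comparison limma called 0 of 12335 genes, TP63 included (limma adjusted p = 0.082), while 2194 had an unadjusted p under 0.05, edgeR called 0 and DESeq2 called 462. CELSR3 was called by DESeq2 (1.68, adjusted p = 0.0019) and with the length and GC trend taken away (1.62, limma adjusted p = 0.027). It was also called without the first siCont library (1.83, limma adjusted p = 0.012) and without either siTP63 library (1.66 and 1.67, limma adjusted p = 0.037 and 0.036). Of 936 long genes in KYSE150, 2 were as high as CELSR3 or higher, against 46 of 951 in TE6 and 220 of 1011 in KYSE180. The effect in KYSE150 exceeded that in KYSE180 by 0.93 and that in TE6 by 1.09 (log2 differences -0.93 ± 0.249 and -1.09 ± 0.249 for the other line minus KYSE150, limma adjusted p = 0.0074 and 0.0035), and KYSE180 and TE6 differed by 0.16 (95% interval -0.36 to 0.68).

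With siBRDT, CELSR3 was not called. In TE6 its log2 fold change was -0.0011 ± 0.120, with a 95% interval from -0.26 to 0.26, where 798 of 951 long genes were as low or lower. In KYSE180 it was at 468, 489.9 and 516 in siCont and at 529, 611 and 731 with siBRDT (0.33 ± 0.101, limma adjusted p = 0.011), under the limit of 0.5. Thus in TE6 CELSR3 was higher with siTP63 than with siBRDT by 0.58 ± 0.120 (limma adjusted p = 0.0024), which after rescaling to equal upper quartiles was 0.38 (limma adjusted p = 0.27) and without the second siTP63 library 0.51 (limma adjusted p = 0.056). With BRDT-OE, CELSR3 fell from 318, 318 and 202 to 152, 151 and 148. The BRDT-OE libraries lay close together and below the controls (log2 fold change -0.86 ± 0.166, limma adjusted p = 0.0016), and 26 of 1037 long genes were as low or lower. Without the third control library the value was -1.08.

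Counted over the 8 genes, 1 fell and 0 rose with siBRDT in KYSE180, beside 30.3% of all genes called (15.8% down and 14.5% up). In TE6 siBRDT 4 fell and 0 rose, beside 33.7% (18.1% down and 15.6% up). Of the long genes there, 40.4% fell and 2.31% rose, so falls were the common direction of genes of this size. With siTP63, 1 fell and 3 rose in KYSE180, beside 49.3% called (25.7% down and 23.6% up), where 11.9% of long genes fell and 35.6% rose. In TE6 siTP63 3 fell and 1 rose, beside 38.9% (20.6% down and 18.3% up), where 38.4% of long genes fell and 5.68% rose. KYSE150 siTP63 gave 0 calls, beside 0% of all genes. With BRDT-OE 2 fell and 1 rose, beside 26.5% (16% down and 10.5% up).

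Rescaling to equal upper quartiles moved the share of falls among all called genes from 53.8% to 17.8% in TE6 siBRDT, from 52.1% to 35.5% in KYSE180 siTP63 and from 60.3% to 71.6% in BRDT-OE. The direct TE6 comparison of siTP63 with siBRDT had 1 member lower and 2 higher, beside 28.4% of all genes (14.3% down and 14.1% up), and its share of falls moved from 50.3% to 76.2%. Of the members tested between lines, 1 of 5 differed for siBRDT between KYSE180 and TE6, with a positive difference, beside 25.1% of all genes (10.8% negative and 14.3% positive). Among 909 long genes in that contrast, 211 were called positive and 49 negative. For siTP63 between the same lines 4 of 5 differed, all positive, beside 52.8% (27.7% negative and 25.1% positive). Positive differences were the common direction of long genes there, with 469 of 892 called positive and 77 negative. For siTP63, 3 of 6 differed between KYSE180 and KYSE150, beside 32.5% (20.2% negative and 12.3% positive), and 3 of 5 between TE6 and KYSE150, beside 24.9% (13.4% negative and 11.4% positive). Long genes were called positive and negative in 148 and 75 of 867 cases in the former contrast. In the latter the counts were 41 and 231 of 834.

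Groups that did not overlap were common among all genes, with so few libraries. In KYSE180 siBRDT 3 measured members lay wholly lower and 1 wholly higher, beside 31.8% and 31% of all genes, and in TE6 siBRDT 4 and 0, beside 37.3% and 34.5%. With siTP63 the counts were 1 lower and 3 higher in KYSE180, beside 40.4% and 39.8%, then 4 and 1 in TE6, beside 40.7% and 39.8%, and 2 and 1 in KYSE150, beside 24.6% and 24.3%. In BRDT-OE 2 members lay wholly lower and 1 wholly higher, beside 29.3% and 30.9%, and in the direct TE6 comparison 1 and 2, beside 33.2% and 35%. Each of these counts is a description and was not tested.

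**Figure D3:**
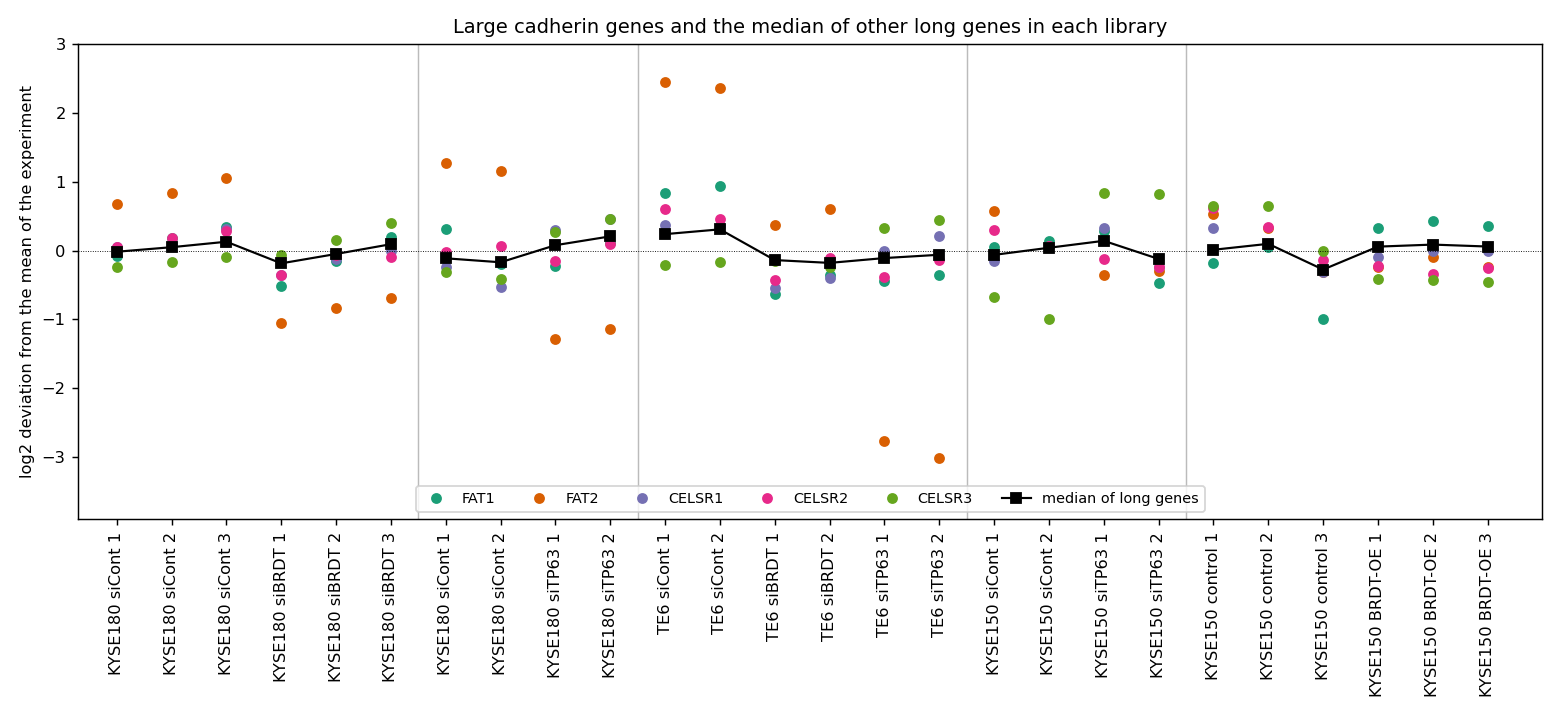
Log2 deviation of FAT1, FAT2, CELSR1, CELSR2 and CELSR3 from the mean of their experiment (y axis) in each of 26 libraries (x axis), with the median deviation of other long genes as black squares. The long-gene median runs from -0.28, in the third KYSE150 control library, to 0.31, in the second TE6 siCont library, while FAT2 departs from it far more in KYSE180 and TE6.

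The make-up of the family shifted accordingly. As a share of the summed RPM per kb of the 8 genes, FAT2 went from 24.0% ± 0.789 (SD, n = 2) in TE6 siCont to 12.7% ± 0.540 with siBRDT and 1.05% ± 0.211 with siTP63. CELSR3 went the other way, from 10.4% ± 0.258 to 21.0% ± 2.41 and 27.4% ± 0.580. In KYSE180 the FAT2 share was 23.04% ± 0.361 against 9.80% ± 0.450 with siBRDT, and 10.9% ± 0.636 against 1.67% ± 0.0470 with siTP63. CELSR1 made up 48.4% ± 1.45 of the family in KYSE180 siTP63. In KYSE150 the CELSR3 share was 2.91% ± 0.228 in siCont and 10.6% ± 1.35 with siTP63, and the FAT1 share was 21.2% ± 3.18 in controls and 36.3% ± 0.628 with BRDT-OE. In none of these pairs did the libraries overlap. The shares sum to a whole, so a lower share of one gene raises the others.

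**Figure D4:**
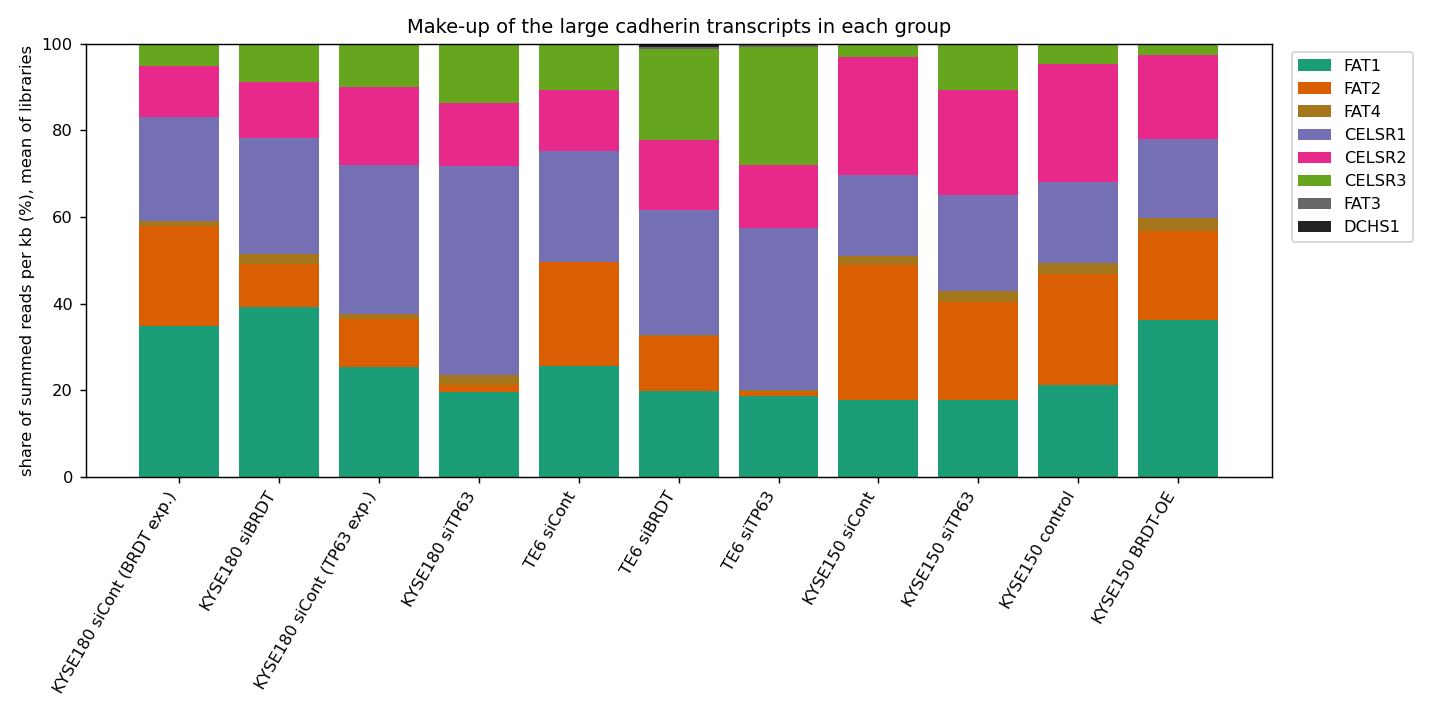
Share of each gene in the summed reads per kb of the 8 large cadherins (y axis, percent, mean of libraries) in the 11 groups (x axis), stacked by gene. FAT2 takes 24.0% in TE6 siCont and 1.05% with siTP63, and FAT3 and DCHS1 are barely visible in any bar.

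Across the 26 libraries, with the mean of each table taken away, members varied together only in part. Pearson's r of log2(value + 1) was 0.63 for FAT2 with CELSR2, 0.57 for FAT1 with CELSR1, 0.54 for CELSR1 with CELSR2, 0.54 for FAT1 with FAT2 and -0.40 for FAT2 with CELSR3. Libraries share treatments and long-gene deviations, so these values are descriptions. Among 9521 genes with a mean value of at least 50 in every table, those most like FAT2 were KIAA0040 (r = 0.969), PHLDA1 (0.963) and CD68 (0.958). Most like FAT1 were PRKAR2A (0.945), MDN1 (0.935) and MFHAS1 (0.928), and most like CELSR1 were DOCK1 (0.947), JMJD1C (0.939) and KLF13 (0.932). CELSR2 was most like EHD2 (0.890), GTPBP1 (0.881) and TSKU (0.867), and CELSR3 was most like MR1 (0.935), PIK3C2B (0.923) and PVRL4 (0.889), the gene of the adhesion molecule nectin-4. PHLDA1 fell in the same 4 knockdown comparisons as FAT2, with log2 fold changes of -0.74 and -0.83 with siBRDT and -2.26 and -3.35 with siTP63 in KYSE180 and TE6. PVRL4 had log2 fold changes of 1.97 in KYSE180 and 1.47 in TE6 with siTP63 and of -1.25 with BRDT-OE, all called. PHLDA1 and PVRL4 were picked for likeness over these same libraries, so their changes beside FAT2 and CELSR3 are no separate result.

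The summed squamous markers moved in the direction of FAT2 in the knockdowns. They ranged from 8618 to 9244.5 RPM in siCont and from 5362 to 5554 RPM with siBRDT in KYSE180, and in TE6 from 7512 to 7816.5 RPM in siCont to 1605 to 1742 RPM with siTP63. TP63 is on that marker list, and the part of these markers in the results for FAT2 was not tested. The 5 neural markers were at 2.54 to 3.47 RPM in KYSE180 siCont and at 10.2 to 12.4 RPM with siTP63, beside the rise of CELSR3, and 1 of the 5 reached 1 RPM in every library. With siBRDT in KYSE180 they went the other way, from 11.2 to 12.4 RPM down to 5.17 to 6.40 RPM, where CELSR3 lay higher without being called. With siTP63 in KYSE180, where FAT4, CELSR1 and CELSR3 rose, the 4 endothelial markers went from 1.43 to 2.09 RPM up to 11.3 to 12.1 RPM. The 5 fibroblast markers went from 36.1 to 39.6 RPM up to 68.5 to 79.7 RPM there. Only 1 endothelial marker and 2 to 3 fibroblast markers reached 1 RPM in a KYSE180 library. The sum of the 5 immune markers, which include CD68, was lower in all 4 comparisons in which FAT2 fell. Only 1 to 2 of them reached 1 RPM in KYSE180 libraries, and 1 did in TE6. CD68 had log2 fold changes of -1.26 and -0.80 with siBRDT and -1.73 and -2.26 with siTP63 in KYSE180 and TE6. It was named above for its likeness to FAT2, so its fall beside FAT2 is no separate result. The immune sum went from 48.1 to 53.9 RPM in KYSE180 siCont to 21.6 to 24.9 RPM with siBRDT, and from 29.0 to 31.9 RPM to 13.2 to 15.5 RPM with siTP63. In TE6 it was at 35.7 to 36.9 RPM in siCont, at 19.8 to 19.9 RPM with siBRDT and at 6.73 to 9.001 RPM with siTP63. The part of these lists in the results was not tested.

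Other genes of the Fat, polarity and Hippo pathways moved in both directions. The counts of list genes below stand beside shares of all genes called down and up of 15.8% and 14.5% for siBRDT in KYSE180, 18.1% and 15.6% for siBRDT in TE6, 25.7% and 23.6% for siTP63 in KYSE180, 20.6% and 18.3% for siTP63 in TE6, 0% and 0% for siTP63 in KYSE150, and 16% and 10.5% for BRDT-OE. The lists are small and were not tested, and a count near these shares is no result about a list. Of 8 Fat and Dachsous partners, of which 6 to 8 passed the filter, 3 fell and 1 rose with siBRDT in KYSE180, 2 fell and 0 rose in TE6, and with siTP63 2 fell and 3 rose in KYSE180 and 4 fell and 1 rose in TE6. MPDZ, a scaffold of PDZ domains, fell with siBRDT in KYSE180 and TE6 (log2 fold changes -1.06 ± 0.115 and -1.25 ± 0.169, limma adjusted p = 1.8e-06 and 1.0e-04). It fell with siTP63 in TE6 (-0.75 ± 0.169, limma adjusted p = 0.0026) and rose in KYSE180 (0.50 ± 0.201, limma adjusted p = 0.034). In KYSE150 0 of 6 were called with siTP63, and with BRDT-OE 0 fell and 1 rose.

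Of 17 core planar cell polarity genes, 16 passed the filter in KYSE180 and TE6. With siBRDT 5 fell and 1 rose in KYSE180 (15.8% and 14.5% of all genes) and 3 fell and 1 rose in TE6 (18.1% and 15.6%). With siTP63 1 fell and 6 rose in KYSE180 (25.7% and 23.6%) and 2 fell and 3 rose in TE6 (20.6% and 18.3%). VANGL1, a Vang-like partner of CELSR proteins, fell with siBRDT in both lines (-1.13 ± 0.0914 and -1.82 ± 0.126, limma adjusted p = 9.5e-08 and 1.1e-06) and rose with siTP63 in KYSE180 (0.70 ± 0.147) and with BRDT-OE (0.61 ± 0.0980, limma adjusted p = 2.6e-04 and 5.7e-04). PRICKLE1, a cytoplasmic core polarity protein, rose with siTP63 in KYSE180 and TE6 and with BRDT-OE (1.09 ± 0.181, 1.11 ± 0.258 and 1.09 ± 0.0824, limma adjusted p = 1.3e-05, 0.0033 and 7.2e-06). With BRDT-OE 1 of 13 measured polarity genes fell and 2 rose, and with siTP63 in KYSE150 0 of 12 were called.

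Among 13 Hippo kinases and scaffolds, 0 fell and 7 rose with siTP63 in KYSE180 (25.7% and 23.6% of all genes), where the median log2 fold change was 0.54 beside 0.00064 over all genes tested. In TE6 siTP63 3 fell and 3 rose (20.6% and 18.3%), with siBRDT 4 fell and 2 rose in KYSE180 (15.8% and 14.5%) and 4 fell and 0 rose in TE6 (18.1% and 15.6%), and neither KYSE150 comparison gave a call. WWC1 (KIBRA), an upstream activator of the kinases, rose with siTP63 in KYSE180 and TE6 (1.18 ± 0.147 and 1.37 ± 0.131) and with siBRDT in KYSE180 (0.71 ± 0.0707, limma adjusted p = 2.2e-07, 4.5e-06 and 8.9e-07). TAOK3, a kinase above the Hippo kinases, rose with siTP63 in both lines (1.244 ± 0.159 and 1.11 ± 0.152, limma adjusted p = 3.5e-07 and 7.5e-05). LATS2, the kinase that restrains YAP, fell with siBRDT in KYSE180 (-1.14 ± 0.101) and rose with siTP63 there (1.28 ± 0.204, limma adjusted p = 2.4e-07 and 7.9e-06) and in TE6 (0.69 ± 0.271, limma adjusted p = 0.048). FRMD6, a FERM-domain scaffold, fell with siBRDT in KYSE180 and TE6 (-0.83 ± 0.0733 and -1.32 ± 0.136) and with siTP63 in TE6 (-1.62 ± 0.136, limma adjusted p = 2.5e-07, 1.7e-05 and 1.6e-06).

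Of 9 YAP/TAZ and readout genes, 8 of them measured in TE6, 1 fell and 5 rose with siTP63 in TE6 (20.6% and 18.3% of all genes) and 1 fell and 4 rose in KYSE180 (25.7% and 23.6%). With siBRDT 1 fell and 1 rose in KYSE180 (15.8% and 14.5%) and 1 fell and 2 rose in TE6 (18.1% and 15.6%). CYR61, a transcriptional target of YAP, rose with siTP63 in TE6 (2.13 ± 0.163, limma adjusted p = 8.1e-07) and fell with siBRDT in KYSE180 (-1.01 ± 0.0799, limma adjusted p = 7.8e-08). TEAD3, a DNA-binding partner of YAP, rose with siTP63 in KYSE180 and TE6 (1.02 ± 0.144 and 1.40 ± 0.156, limma adjusted p = 1.4e-06 and 1.5e-05) and fell with BRDT-OE (-0.79 ± 0.0814, limma adjusted p = 3.8e-05). Its relative TEAD1 fell in TE6 with siBRDT and siTP63 (-1.03 ± 0.172 and -1.04 ± 0.172, limma adjusted p = 4.2e-04 and 3.1e-04). With BRDT-OE 2 of these 9 genes fell and 2 rose, and with siTP63 in KYSE150 0 were called.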

How the data were processed

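RNA-seq of 26 libraries from 3 human ESCC cell lines was analysed in 11 groups taken from the labels. According to the submitters' processing notes, the authors used STAR 2.6.0 for alignment (build hg38), HTSeq 0.11.2 for gene counts and DESeq2 1.24.0 for scaling. The gene annotation and strand setting were not given in the sources used here. Each value in the deposited tables is a normalised signal, a gene count divided by 1 size factor per library, set separately in 5 tables. All values (100%) were whole multiples of 1 read within a tolerance of 0.01, and recovered totals were 7582089 to 19372441 reads per library. Every column of the tables was mapped to a sample.

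Each table was fitted alone with limma 3.58.1 in R 4.3.3 (lmFit, eBayes with trend = TRUE) on log2(value + 1), a scale that understates changes of low genes, with genes of a mean value of at least 10. The 3 TE6 groups shared 1 fit. Thresholds were an adjusted p of 0.05 (Benjamini-Hochberg over all genes tested) and a log2 fold change of 0.5. Differences between lines were contrasts in a fit of 11 group means over 26 libraries, without a fold limit. Intervals are 95% limma intervals. Alternatives were a pseudocount of 0.1, no filter, upper quartile rescaling, DESeq2 1.42.0 and edgeR 4.0.16 on recovered reads, a replicate block, removal of length and GC trends (splines with 4 degrees of freedom), no fold limit, 2 TE6 groups only, and each library left out. Crossed blocks were added after seeing the data. A GENCODE 44 transcript was found for 24503 symbols (92.5%). Fits were tested on simulated counts with the same set spread for every gene and no trend on transcript length. That check therefore does not bear on the deviations of long genes between libraries.

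The 8 genes and the pathway, marker and long-gene lists were chosen with earlier results of these data known. Named were the 8 genes, BRDT and TP63, pathway genes called in 2 or more of 6 comparisons with a size of 1 or more on the log2 scale, and the 3 genes most like each member with a mean value of at least 50 in every table. DCHS2 was named outside this rule, as the other Dachsous gene.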

Additional observations from a re-analysis of the deposited data

Results flagged for a closer look

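In 11 cases the effect of a knockdown on a large cadherin differed between cell lines by a limma contrast of the difference itself (log2 scale, first line minus second). For siBRDT, FAT1 differed by 1.07 between KYSE180 and TE6. For siTP63 between KYSE180 and TE6, FAT2 differed by 2.87, FAT1 by 1.17, CELSR1 by 1.02 and CELSR2 by 0.74. For siTP63 between KYSE180 and KYSE150, FAT2 differed by -1.79, CELSR3 by -0.93 and CELSR1 by 0.67. For siTP63 between TE6 and KYSE150, FAT2 differed by -4.65, CELSR3 by -1.09 and FAT1 by -1.09. Beside these, the median difference of other long genes was 0.34, 0.62, 0.22 and -0.39 in the 4 contrasts. TP63 itself had log2 fold changes with siTP63 of -1.70 in KYSE180, -4.45 in TE6 and -2.34 in KYSE150. The part of this unequal knockdown in the siTP63 differences was not tested. The FAT2 and CELSR3 differences and that of CELSR1 between KYSE180 and TE6 held their call in every alternative tried. Those of FAT1 and CELSR2, and of CELSR1 between KYSE180 and KYSE150, each lost it without 1 of several libraries. Under other settings this CELSR1 difference lost it too (adjusted p up to 0.094), as did the FAT1 differences. For FAT1 the limma or edgeR adjusted p reached 0.086 for siBRDT between KYSE180 and TE6. With siTP63 it reached 0.062 between the same lines and 0.052 between TE6 and KYSE150. The CELSR1 difference between KYSE180 and KYSE150 was 0.39 to 0.74 (limma adjusted p from 0.056 to 0.28) without the second siCont or second siTP63 library of KYSE150, the second siCont library of KYSE180 or either of its siTP63 libraries. The FAT1 difference between TE6 and KYSE150 was -1.14 to -0.71 (limma adjusted p from 0.071 to 0.23) without the first siCont or first siTP63 library of KYSE150 or any of the 4 TE6 libraries.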

How the results depend on the processing

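Without the fold limit, 4 of 6 measured large cadherins passed the limma adjusted p of 0.05 with siBRDT in KYSE180. Of all genes there, 8515 of 13589 had an unadjusted limma p under 0.05. That is a looser threshold, so these counts are not like for like, and the former is no result about the family. Rescaling to equal upper quartiles left 2 called in TE6 siBRDT (3298 of 13333 genes overall) and 1 in TE6 siTP63 against siBRDT (2381 of 13333). It left 0 differing for siBRDT between KYSE180 and TE6 (2398 of 12612). It moved the median log2 fold change of all genes from -0.039 to 0.24 in TE6 siBRDT, from 0.00064 to 0.22 in KYSE180 siTP63, from 0.014 to -0.18 in the direct TE6 comparison, from -0.0077 to 0.096 in KYSE150 siTP63, and from 0.058 to -0.16, -0.012 to 0.12 and -0.060 to 0.054 in the contrasts KYSE180 minus TE6 for siBRDT, KYSE180 minus TE6 for siTP63 and KYSE180 minus KYSE150 for siTP63. The share of negative differences among called genes went from 43.0% to 78.1% in the first of these contrasts and from 62.1% to 48.9% in the last (51.5% with edgeR). In KYSE150 siTP63, 1 member was called with DESeq2 and 1 with the length and GC trend removed, and genes called overall were 0 with limma and edgeR, 462 with DESeq2, 724 with the trend removed and 45 with no filter.

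Values near 0 changed sign, and the cause was not tested. CELSR3 in TE6 siBRDT was 0.28 after rescaling, 0.011 with edgeR, 0.023 with DESeq2 and 0.051 with the trend removed. CELSR2 in KYSE180 siTP63 was 0.17 after rescaling and 0.0041 with edgeR, FAT1 there was 0.10 after rescaling, and FAT4 in KYSE150 siTP63 was 0.090 after rescaling and 0.0053 with edgeR. The CELSR2 log2 fold change, TE6 siTP63 against siBRDT, was -0.19 after rescaling, -0.012 with edgeR, -0.0085 with DESeq2 and -0.037 with the trend removed, and that of FAT1 was -0.10 after rescaling. Between lines, FAT2 for siBRDT was -0.011 after rescaling, and with the trend removed CELSR3 for siTP63 (KYSE180 minus TE6) was -0.040 and FAT1 (KYSE180 minus KYSE150) -0.17.

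With each library left out, members called ranged from 1 to 2 in KYSE180 siBRDT. Genes called overall there ranged from 3924 to 4153, beside 4115 with all libraries. Where a group was left with 1 library, it was assumed to vary like the others in its fit. Counts of members called are not given for such fits. Log2 fold changes ranged from -0.046 to 0.044 for CELSR3 in TE6 siBRDT, -0.17 to 0.078 for CELSR2 and -0.37 to 0.14 for FAT1 in KYSE180 siTP63, -0.19 to 0.37 for CELSR1, -0.57 to 0.19 for FAT1 and -0.072 to 0.046 for FAT4 in KYSE150 siTP63, -0.25 to 0.072 for CELSR1 in BRDT-OE, -0.15 to 0.17 for CELSR2 and -0.046 to 0.24 for FAT1 in the direct TE6 comparison, and -0.31 to 0.46 for FAT1 between KYSE180 and KYSE150. Of 464 values of single genes under other settings, 427 kept direction and side of the threshold, as did 367 of 418 with a library left out.

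Same-numbered libraries shared only a number. Their deviations correlated at 0.418, 0.065 and 0.424 in the KYSE180 BRDT experiment, where each library correlated best with its own number, a hint from the data and not the design. In BRDT-OE they correlated at 0.048 to 0.19, where that did not hold, and in the KYSE180 TP63 experiment at 0.164. The value was -0.288 between TE6 siCont and siBRDT and -0.855 between KYSE150 siCont and siTP63. In groups of 2 libraries, libraries of unlike number give the same size with the opposite sign by construction. With the replicate block 1, 4, 4, 4, 0 and 3 members were called in KYSE180 siBRDT, TE6 siBRDT, KYSE180 siTP63, TE6 siTP63, KYSE150 siTP63 and BRDT-OE and 3 in the direct TE6 comparison, and 1, 4, 2 and 3 differed between lines. Genes called overall in the same order were 4175, 4442, 6799, 5177, 137, 3433 and 3749, and 1779, 5983, 2703 and 1692 differed between lines. All-gene calls in KYSE150 siTP63 rose from 0 to 137, and those between KYSE180 and TE6 for siBRDT went from 3168 to 1779. A crossed pairing of libraries of unlike number was added after seeing the data, where these correlated at 0.855 in KYSE150 siTP63 and 0.288 in TE6 siBRDT. It gave 2 members and 3400 genes in KYSE150 siTP63 and 4 members and 4561 genes in TE6 siBRDT, counts that rest on a pairing chosen from these same data. Groups of 2 or 3 libraries limit the precision, and FAT3 and DCHS1 were too low to test at this depth.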
